A study of Mus musculus with 9 samples.

Results

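The genes described here encode the nuclear subunits of oxidative phosphorylation, the 5 membrane complexes of mitochondria that move electrons to oxygen and make ATP. Members were the genes of the array annotation whose symbol names a subunit of complex I (the Ndufa, Ndufb, Ndufc, Ndufs and Ndufv families), complex II (Sdha to Sdhd), complex III (the Uqcr family and Cyc1), complex IV (Cox4i, Cox5, Cox6, Cox7 and Cox8) or ATP synthase, complex V (Atp5), together with cytochrome c (Cycs). Assembly factors were left out. The annotation gave 84 such genes with a probe set of their own, of 18193 genes in all: 34 in complex I, 4 in complex II, 9 in complex III, 19 in complex IV, 17 in complex V, and Cycs. Ndufa4 and its relative Ndufa4l2 were counted with complex IV, where the Ndufa4 protein is now placed, although their symbols are those of complex I. Each gene was read by its probe set with the highest mean signal over all 9 arrays. Of the 84, 81 were bright enough to be tested, and Ndufb4, Cox7a1 and Cox7b2 were not.

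The samples were T-cell lymphomas that arose in G3 Atm-/- TERT-ER mice, which lack the DNA damage kinase Atm and carry the catalytic protein of telomerase joined to oestrogen receptor sequence, so that 4-hydroxytamoxifen (4-OHT) switches it on. The 5 ALT tumours were taken at passage 4 in SCID mice on vehicle and maintain telomeres by alternative lengthening of telomeres, a recombination-based route. The 3 telomerase tumours were taken at passage 4 in SCID mice on 4-OHT, and 1 parental tumour, labelled telomerase-positive, has no passage number and no stated treatment. All tumours share the Atm deletion and the TERT-ER allele. SCID hosts lack their own mature T and B cells but keep other cells. The sources used here do not name the promoter of TERT-ER or say whether animals were pooled or tumours of a group came from separate lines or animals. The p-values therefore measure the spread between these samples, which may be technical. Vehicle and ALT coincide in 1 group, 4-OHT and active telomerase in the other, and these effects cannot be told apart.

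Electrons from NADH enter the chain at complex I and those from succinate at complex II; both pass them to ubiquinone, and complex III hands them through cytochrome c to complex IV, which reduces oxygen. Complexes I, III and IV pump protons as they do so, and the proton gradient turns the rotor of complex V. All but complex II also hold subunits encoded by mitochondrial DNA, so that nuclear and mitochondrial transcripts must together supply each complex. Short telomeres in Tert-deficient mice are known to depress mitochondrial biogenesis through p53 and the PGC-1 coactivators.

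Total RNA was hybridised to 3' expression arrays that give 1 intensity, in MAS5 signal units on a linear scale, for each probe set. Array medians lay between 39.8 and 43.8, and the number of arrays limits the precision. Signals of T-cell genes were high in every tumour: Cd3d, a chain of the T-cell receptor complex, ranged from 6699.6 to 8262 in ALT tumours and from 9308 to 9846 in telomerase tumours. The 9 T-cell markers summed to 26229 to 32716 in ALT tumours and 34450 to 37232 in telomerase tumours, and 1 of them was higher and 3 were lower in ALT past the threshold. Transcripts of pancreatic acinar cells stood out in ALT 1, ALT 2, ALT 5 and telomerase 3, where 12 markers summed to 92715 to 186954 in the ALT arrays and 121290 in telomerase 3. They summed to at most 971 in the other 5 arrays. Skeletal muscle markers (14 genes) summed to 324 to 412 in ALT tumours, to 10313, 736 and 356 in telomerase 1, 2 and 3, and to 15531 in the parental tumour. Myeloid markers (10 genes) summed to 6950 to 10491 in ALT tumours and 6717 to 9460 in telomerase tumours. Of 6 adipocyte markers only Fabp4, which endothelial cells and macrophages also express, exceeded 100, at 832 to 1719.6 in ALT tumours and 1352 to 2178 in telomerase tumours. In bulk tissue, fewer cells of a type and less RNA per cell cannot be told apart.

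In the ALT tumours small groups of subunit genes moved, mostly down, while the bulk of the 81 did not pass the test. With limma (log2 of the signal plus 16, p-values adjusted by Benjamini and Hochberg's method over 12375 genes, with 0.05 as threshold), 15 of 81 passed: Ndufa5, Ndufs7, Ndufa9 and Cox4i1 rose, and Ndufa4, Uqcrfs1, Atp5j, Uqcrb, Atp5o, Cox6c, Uqcrq, Sdhc, Cox8a, Atp5pb and Atp5b fell. That share, 18.5%, lies near the background: 17.5% of all tested genes passed, 7.47% higher and 10.1% lower in ALT. In 20 of the 81 genes (24.7%) all ALT values lay on 1 side of all telomerase values, against 24.8% of all tested genes. The median log2 change of the 81 genes was -0.0068, against -0.0063 for all tested genes. The median size of the change without regard to sign was 0.11, against 0.21 for all tested genes, and the median standard error was 0.077 against 0.14. With quantile normalisation 4 of the 81 were higher and 6 lower, against a background of 9.09% and 8.46%, and with median centring 4 and 7.

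By complex, the calls divided as follows. In complex I 3 of 33 tested genes rose and 0 fell. In complexes II, III and V 1 of 4, 3 of 9 and 4 of 17 tested genes fell, together 8, and 0 rose. Among all tested genes 7.47% rose and 10.1% fell. Of the 8, Uqcrfs1 and Uqcrb lie on chromosome 13, where 40.1% of all tested genes fell. Atp5j and Atp5o lie on chromosome 16, where 16.1% fell. At an unadjusted limma p under 0.05 the counts were 5 higher and 1 lower in complex I, 0 and 1 in complex II, 0 and 3 in complex III, 1 and 3 in complex IV, and 1 and 6 in complex V. In all, 21 of the 81 members were under that cutoff, beside 3887 of the 12375 tested genes, a smaller share for the members. The median log2 change was 0.032 in complex I, -0.15 in complex II, -0.0068 in complex III, -0.042 in complex IV and -0.049 in complex V. The difference between complexes was not tested.

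**Figure D1:**
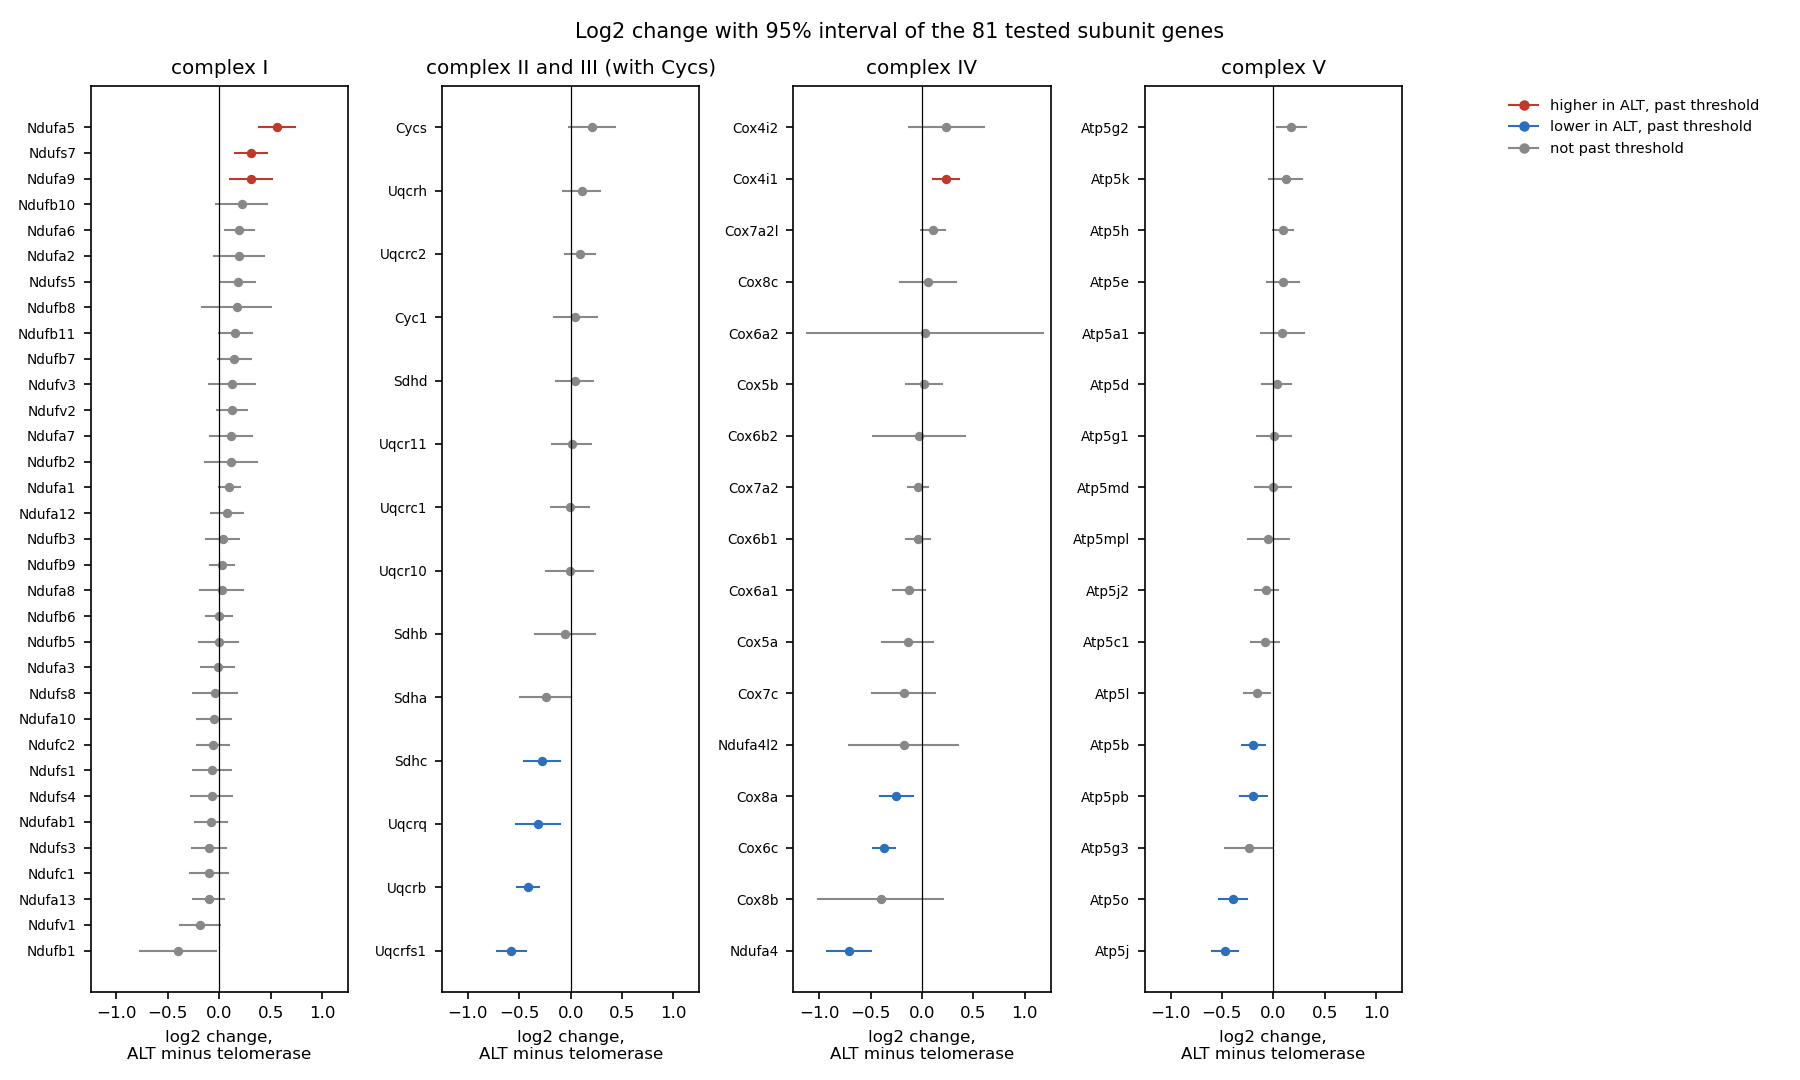
Log2 change, ALT minus telomerase, of the 81 tested subunit genes (points, with 95% intervals), by complex; red and blue mark genes past the threshold. The 3 called genes of complex I lie right of 0, and the 8 called genes of complexes II, III and V lie left of it.

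The upstream sequences of 4 of these genes are shown because they carry the largest rise and the 3 largest falls. RefSeq start sites (GRCm38.p6) were available for 68 of the 84 genes. Each stretch holds the 250 bases before the start, read 5' to 3' on the strand of the gene, with matches in capitals to GCGCA and GCGC with any 1 base between them (bound by NRF1), CCGGAAG (bound by ETS factors such as GABP) or AAGATGGC (bound by YY1), searched on both strands; NRF1, GABP and YY1 are known regulators of nuclear respiratory genes. Ndufa5 is shown for the more upstream of 2 listed starts, at chr6:24527691-24527940, minus strand, and holds an NRF1 match that begins 26 bases before the start. Atp5j is shown at chr16:84834977-84835226, minus strand, for the more downstream of its 2 starts. A YY1 match begins 88 bases and an ETS match 61 bases before that start. The 250 bases before its other start, at chr16:84835626-84835875, hold no match. Uqcrfs1, at chr13:30545317-30545566, minus strand, and Ndufa4, at chr6:11907451-11907700, minus strand, hold no match.
Ndufa5: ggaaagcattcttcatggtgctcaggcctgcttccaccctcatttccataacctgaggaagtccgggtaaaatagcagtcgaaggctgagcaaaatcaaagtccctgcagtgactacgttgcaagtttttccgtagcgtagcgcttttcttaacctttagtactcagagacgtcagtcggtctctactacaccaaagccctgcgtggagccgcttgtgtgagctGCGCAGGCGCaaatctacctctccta
Atp5j: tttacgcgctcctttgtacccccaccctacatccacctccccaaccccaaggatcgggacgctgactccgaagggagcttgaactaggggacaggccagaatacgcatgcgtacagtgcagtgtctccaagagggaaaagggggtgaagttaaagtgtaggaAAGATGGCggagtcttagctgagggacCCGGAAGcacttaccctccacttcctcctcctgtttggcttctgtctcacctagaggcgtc
Uqcrfs1: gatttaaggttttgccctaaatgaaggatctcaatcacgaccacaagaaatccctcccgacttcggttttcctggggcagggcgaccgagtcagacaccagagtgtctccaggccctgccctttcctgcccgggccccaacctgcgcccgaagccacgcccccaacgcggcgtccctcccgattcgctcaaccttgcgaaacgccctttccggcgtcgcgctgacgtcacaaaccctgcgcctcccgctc
Ndufa4: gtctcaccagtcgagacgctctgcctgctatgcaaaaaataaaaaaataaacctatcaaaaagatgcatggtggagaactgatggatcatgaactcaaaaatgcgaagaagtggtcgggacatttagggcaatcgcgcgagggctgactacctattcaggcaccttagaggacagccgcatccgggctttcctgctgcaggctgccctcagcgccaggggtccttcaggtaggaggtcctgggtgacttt

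Over the whole 300-base windows, which run to 50 bases past the start, 50.7% of the 73 promoters of subunit genes held at least 1 of the 3 motifs, against 14.7% of all 32851 promoters in the table. NRF1 letters were in 21.9% of the subunit promoters and 4.6% of all, ETS letters in 23.3% and 8.86%, and YY1 letters in 12.3% and 2.75%. Matches of different motifs overlapped in 0 of the subunit promoters. Among the 12 promoters of 10 called genes, 8 held a motif, and both genes that rose and genes that fell were among them: Ndufa5, Ndufa9 and Ndufs7 on 1 side, Atp5j, Atp5o, Atp5pb and Cox8a on the other. The overlapping promoters of the Ndufa5 starts hold the same NRF1 match, so it is counted once for each start. The called genes Uqcrb, Uqcrq, Cox6c, Sdhc and Cox4i1 had no listed start. A match is a description of the letters and not a measured binding site.

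In complex I, the largest complex, the ALT tumours had more signal for 3 subunits of the arm that reaches into the matrix. There NADH is oxidised and ubiquinone reduced. These are 3 of 33 tested genes (9.09%), near the background of 7.47% higher. Ndufs3 and Ndufs8, core subunits of the same arm, had log2 changes of -0.098 and -0.038 and did not pass. The arm as a whole was not tested. Ndufa5, an accessory subunit of that arm, had signals of 1893, 1825, 1778, 1558 and 1787 in ALT tumours 1 to 5, against 1214, 1178 and 1181 in telomerase tumours 1 to 3. Every ALT value lay above every telomerase value, and the change was 0.56 on the log2 scale (SE 0.078, limma adjusted p = 0.00121). Its second probe set, adjusted over all probe sets, changed by 0.50 (limma adjusted p = 0.00327). Ndufs7, a core subunit that holds the iron-sulphur cluster next to ubiquinone, had 2971, 3008, 3089, 2931 and 3142 in ALT tumours, against 2316, 2325 and 2703 in telomerase tumours. The groups did not overlap, telomerase 3 came nearest to the ALT tumours, and the change was 0.31 (SE 0.069, limma adjusted p = 0.0139). Ndufa9, an accessory subunit near the ubiquinone site, had 2644, 2047, 2223, 2096 and 2213 in ALT tumours, against 1739, 1896 and 1776 in telomerase tumours. ALT 1 was the highest of the ALT values, the groups did not overlap, and the change was 0.31 (SE 0.09, limma adjusted p = 0.0418).

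The complex I genes Ndufa6, Ndufs5, Ndufv2 and Ndufa1 had all 5 ALT values above all 3 telomerase values without passing the test, with log2 changes of 0.20, 0.19, 0.12 and 0.096 (limma adjusted p = 0.0566, 0.115, 0.221 and 0.183). None of the 33 had the reverse separation, against a background of 13.9% lower and 10.9% higher among all tested genes without overlap. The Ndufb genes, which build much of the membrane arm, gave 0 calls of 10 tested with limma and 1 at an unadjusted p under 0.05. It was Ndufb1, the dimmest tested gene of the complex, with 74, 85.3, 68.4, 75.5 and 98.6 in ALT tumours and 109.6, 143 and 85.9 in telomerase tumours. Its log2 change was -0.40 with a 95% interval of -0.77 to -0.036 (limma adjusted p = 0.124). The smallest change in the complex was that of Ndufb6, another membrane arm subunit, at 3511 ± 131 in ALT tumours and 3523 ± 110.5 in telomerase tumours (SD, n = 5 and 3), with an interval of -0.13 to 0.12. Among core genes of the NADH end, Ndufv1 had a log2 change of -0.19, Ndufv2 of 0.12 and Ndufs1 of -0.071, and 0 of these passed the limma test, also at an unadjusted p under 0.05.

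Complex II is the only complex built wholly from nuclear genes, and it also serves the citric acid cycle. Sdhc, 1 of its 2 membrane anchors, had 714, 764, 747, 762 and 687 in ALT tumours, against 897, 932 and 859.9 in telomerase tumours. Every ALT value was below every telomerase value, with a log2 change of -0.28 (SE 0.077, limma adjusted p = 0.0329). The other anchor, Sdhd, was at 1494, 1713, 1606, 1592 and 1806 in ALT tumours and 1537, 1663 and 1587 in telomerase tumours, with overlapping groups and an interval of -0.14 to 0.21. Sdha, the flavoprotein that oxidises succinate, was at 1659, 1677, 2241, 1645 and 1880 in ALT tumours and 2247, 2216 and 1972 in telomerase tumours. ALT 3 lay within the telomerase range, and the change of -0.24 did not pass the test (limma adjusted p = 0.166). It passed without ALT 3 (limma adjusted p = 0.0338). Sdhb, the iron-sulphur subunit, ranged from 2786 to 4170.2 in ALT tumours and from 3053 to 3969 in telomerase tumours, with a change of -0.058 and an interval of -0.35 to 0.23.

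In complex III 3 of 9 genes fell, beside 10.1% of all tested genes. Of the 3, Uqcrfs1 and Uqcrb lie on chromosome 13, where 40.1% of the 444 tested genes fell. Uqcrfs1, the Rieske iron-sulphur protein that takes electrons from ubiquinol, had 1699, 1877, 1819.6, 1732 and 1853 in ALT tumours, against 2757, 2666 and 2637 in telomerase tumours. The groups were far apart relative to their spread, with a log2 change of -0.58 (SE 0.064, limma adjusted p = 0.000395). Uqcrb, a small subunit near a ubiquinone site, had 10660.4, 11769.8, 10620.5, 10683 and 11577 in ALT tumours, against 14699.7, 14935 and 14489 in telomerase tumours. Here too the groups did not overlap, and the change was -0.41 (SE 0.048, limma adjusted p = 0.000515), with -0.46 for its second probe set. Uqcrq, another small subunit, had 2464, 3167, 3004, 2747 and 2809 in ALT tumours, against 3859.6, 3613 and 3161 in telomerase tumours. ALT 2 reached just above telomerase 3, so the groups overlapped, and the change was -0.32 (SE 0.095, limma adjusted p = 0.0441). A dim probe set of Uqcrq pointed the other way (log2 change 0.088). The other 6 genes did not pass. Cyc1, cytochrome c1, was at 3903 ± 360.2 in ALT tumours and 3781 ± 418 in telomerase tumours (SD, n = 5 and 3), with an interval of -0.16 to 0.26. Uqcrc1, a core protein, had the smallest change, -0.0068, with an interval of -0.20 to 0.18. Cycs, the mobile cytochrome c that connects complexes III and IV and also triggers apoptosis when released, had 9328, 6728, 7976, 6855 and 7828 in ALT tumours and 6334, 7001 and 6589.9 in telomerase tumours. ALT 1 was well above the rest, the groups overlapped, and the change of 0.21 did not pass (limma adjusted p = 0.182).

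In complex IV 1 of 17 tested genes rose and 3 fell, beside 7.47% higher and 10.1% lower among all tested genes. Ndufa4, first isolated with complex I, had the largest change of all members, with 2604, 2839, 2647, 2161 and 2832 in ALT tumours, against 4509, 3984 and 4327 in telomerase tumours. The groups did not overlap, ALT 4 was the lowest, and the log2 change was -0.71 (SE 0.095, limma adjusted p = 0.000959). Counted by its symbol, it would make complex I 3 higher and 1 lower of 35. Cox6c, a small subunit of the membrane part, had 8763, 9645, 8646, 8635 and 8832 in ALT tumours, against 11242, 11682 and 11526 in telomerase tumours. All ALT values were lower, with a change of -0.37 (SE 0.049, limma adjusted p = 0.000914). Cox8a, the widely expressed form of the smallest subunit, had 2839, 3374, 2813, 3006 and 2961 in ALT tumours, against 3431, 3672 and 3587 in telomerase tumours. ALT 2 came close to the telomerase values without reaching them, and the change was -0.25 (SE 0.072, limma adjusted p = 0.0391). Cox4i1, the widely expressed form of a subunit through which ATP regulates the enzyme, rose, with 9164, 10738, 9388, 9549 and 9828 in ALT tumours, against 8204, 8227 and 8327 in telomerase tumours. The 3 telomerase values were close together and below every ALT value, with a change of 0.24 (SE 0.056, limma adjusted p = 0.0172).

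The other widely expressed subunits of complex IV did not pass: the log2 changes were -0.14 for Cox5a, 0.019 for Cox5b, -0.13 for Cox6a1, -0.042 for Cox6b1, -0.036 for Cox7a2, 0.11 for Cox7a2l and -0.18 for Cox7c. Cox7a2l, which links complexes III and IV into supercomplexes, had an interval of -0.013 to 0.23. The interval of Cox5b, whose change was the smallest of the complex, ran from -0.15 to 0.19. Cox6a1 was highest in ALT 2, at 13809.6. It passed without that array (limma adjusted p = 0.0397) and did not with all of them (0.262). Its other probe set, with means of 5768 in ALT tumours and 5371 in telomerase tumours, pointed the other way. There the log2 change was 0.10 (limma adjusted p = 0.316 over all probe sets).

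**Figure D2:**
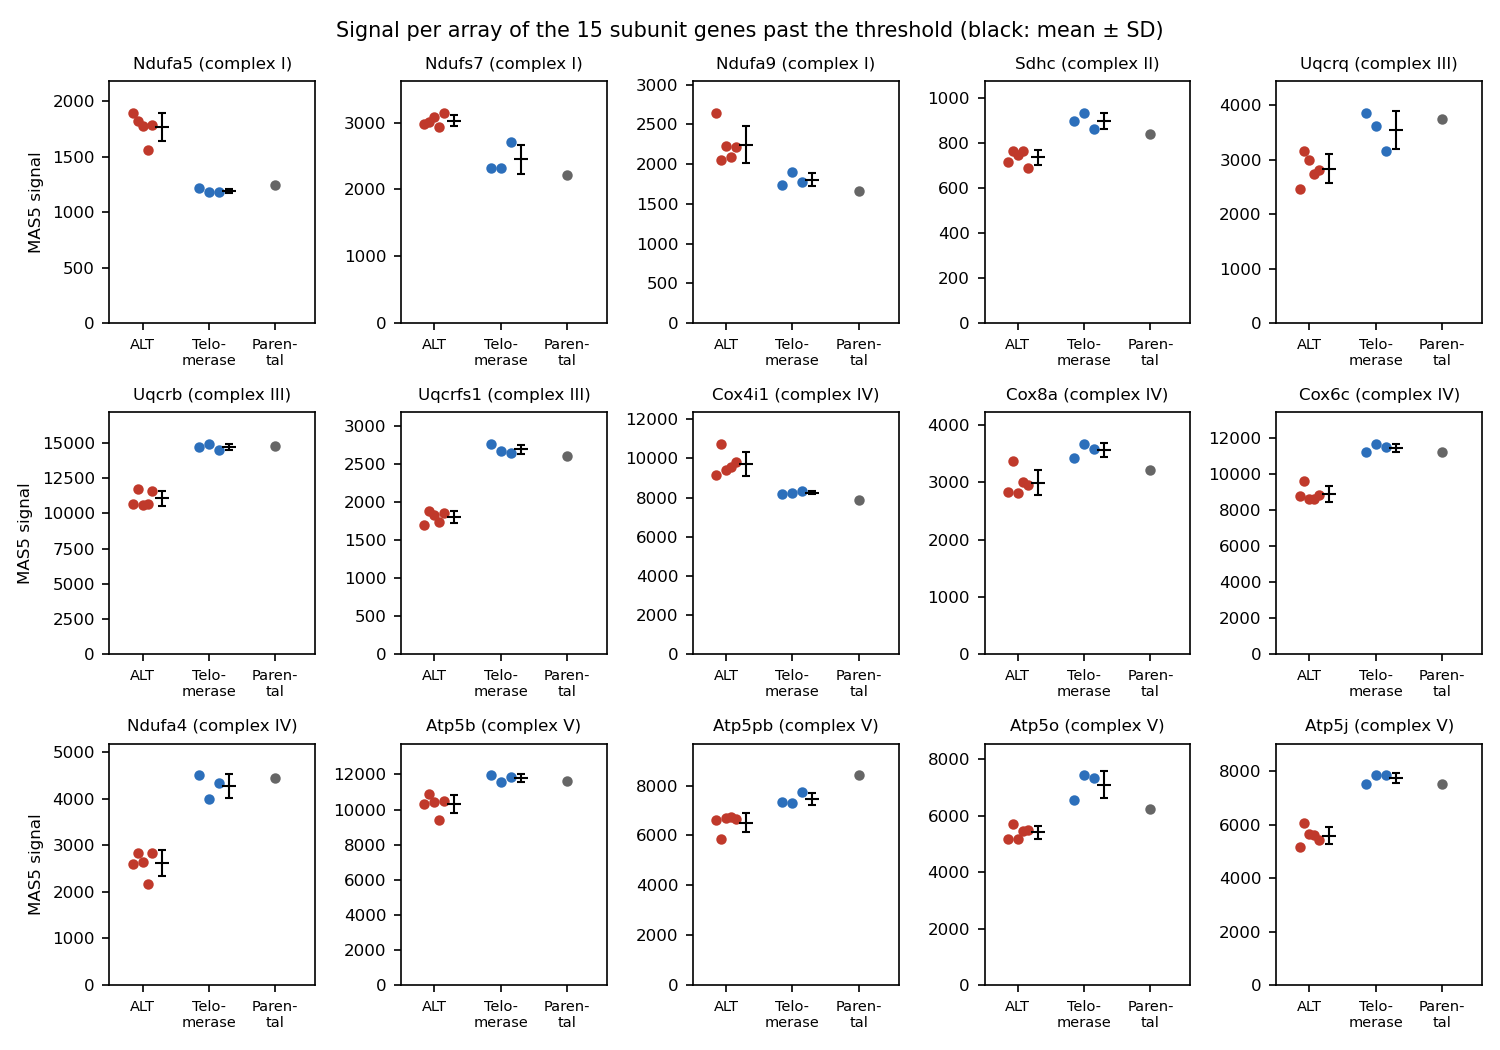
MAS5 signal (y axis, from 0) of the 15 subunit genes past the threshold, 1 point per array, with the mean and SD of ALT and telomerase tumours in black. In 14 of the 15 panels the ALT and telomerase points do not overlap; Uqcrq is the exception.

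Tissue isoforms of complex IV replace the common ones in muscle, heart, testis or lung. Of the 8 on the list 6 were tested and 0 passed with limma, also at an unadjusted p under 0.05. Cox8b, a form of striated muscle and brown fat, was dim, with 24.5, 11.9, 11.9, 32 and 21.6 in ALT tumours, 53.9, 22.9 and 22.2 in telomerase tumours and 97.5 in the parental tumour. Cox7a1, a muscle form below the filter, had 10.7, 20.3, 21.8, 9.48 and 21.9 in ALT tumours, 25.3, 17 and 17.4 in telomerase tumours and 36.5 in the parental tumour. Both were highest in the parental tumour and next highest in telomerase 1, the 2 arrays with the highest sums of skeletal muscle markers; the part of muscle tissue in these values was not tested. Cox6a2, another muscle form, did not follow that order, with 322, 259.6, 329.7, 712 and 104 in ALT tumours, 319.7, 478 and 151 in telomerase tumours and 426 in the parental tumour. It varied most of all members in the ALT group, with a coefficient of variation of 64.9%, and its interval of -1.12 to 1.18 leaves a large change in either direction undetectable here. Cox6b2, a testis form, was at 177, 224, 241, 214 and 242 in ALT tumours and 319, 228 and 152 in telomerase tumours, with overlapping groups. Cox4i2, a lung form induced by low oxygen, was at 66.5 ± 13.7 in ALT tumours and 53.4 ± 5.1 in telomerase tumours (SD, n = 5 and 3). Ndufa4l2, also induced by low oxygen, was at 31.1 ± 12.7 in ALT tumours and 36.9 ± 11.1 in telomerase tumours, and Cox8c, another testis form, at 118 ± 13.5 in ALT tumours and 112 ± 10.3 in telomerase tumours. Cox7b2 was near the bottom of the scale, at 3.87 to 17.9 in ALT tumours and 5.65 to 10.8 in telomerase tumours. The bars of isoforms and marker lists show these values array by array.

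**Figure D3:**
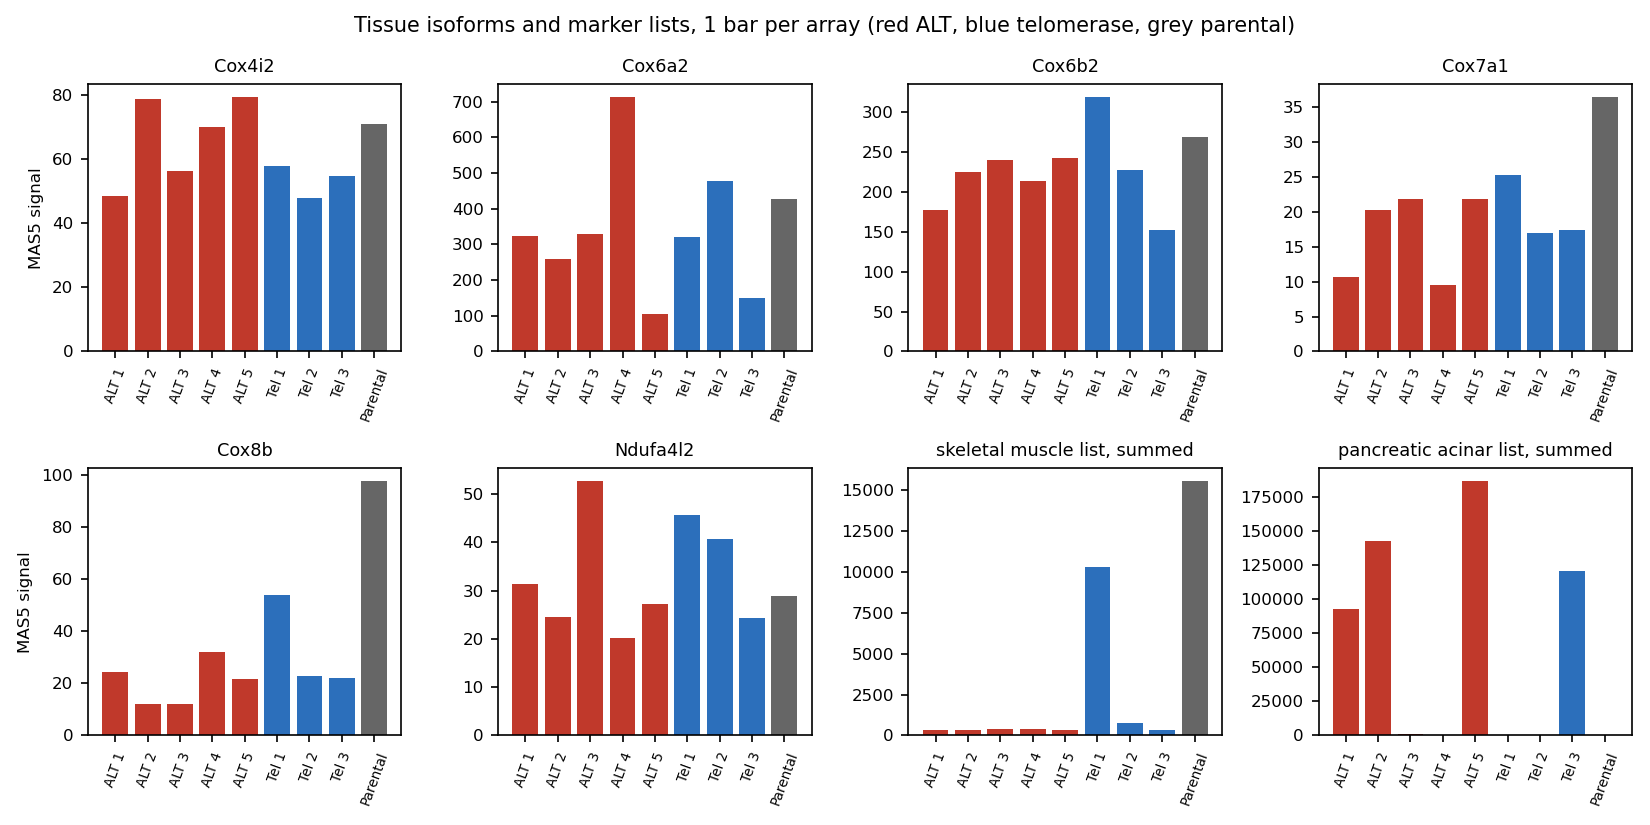
MAS5 signal per array (bars from 0) of 6 tissue isoforms, and the summed signal of the skeletal muscle (14 genes) and pancreatic acinar (12 genes) marker lists. Cox7a1 and Cox8b are highest in the parental tumour and telomerase 1, where the muscle sum reaches 15531 and 10313.

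In complex V 4 of 17 genes fell, beside 10.1% of all tested genes. Of these 4, 3 were among the 4 genes of the peripheral stalk, the stator that keeps the catalytic head from turning with the rotor. This division of the complex was made after the values were seen and was not tested. Of the 6 genes of the complex lower at an unadjusted limma p under 0.05, 3 belong to the stalk. Of the stalk genes, Atp5j and Atp5o lie on chromosome 16, where 16.1% of 411 tested genes fell. Atp5j (subunit F6) had 5175, 6051, 5673, 5615 and 5438 in ALT tumours, against 7525, 7849 and 7863 in telomerase tumours. The groups did not overlap, and the log2 change was -0.47 (SE 0.058, limma adjusted p = 0.000625). Atp5o (the oligomycin sensitivity-conferring protein at the top of the stalk) had 5175, 5707, 5168, 5461 and 5498 in ALT tumours, against 6535, 7437 and 7318 in telomerase tumours. Telomerase 1 was the lowest of its group but above every ALT value, and the change was -0.39 (SE 0.061, limma adjusted p = 0.00226). Atp5pb (subunit b) had 6640, 5860, 6708, 6743 and 6641 in ALT tumours, against 7345, 7303 and 7739.6 in telomerase tumours. The groups were apart, ALT 2 was the lowest, and the change was -0.20 (SE 0.059, limma adjusted p = 0.0455); this call was lost whichever of the 8 arrays was left out. The fourth stalk gene, Atp5h (subunit d), had 12054, 12166, 12354, 11483 and 12647 in ALT tumours and 11550.2, 11642 and 10938 in telomerase tumours, with a change of 0.093 that did not pass (limma adjusted p = 0.187).

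Of the 5 genes of the catalytic F1 head, Atp5b, the beta subunit that makes ATP, fell. It had 10339, 10881, 10449.8, 9429 and 10477 in ALT tumours, against 11971, 11561 and 11858 in telomerase tumours. No values overlapped, and the change of -0.19 was the smallest of any called member (SE 0.051, limma adjusted p = 0.0267). Its partner Atp5a1, the alpha subunit, had a change of 0.085 with an interval of -0.12 to 0.29. Its other probe sets gave 0.32 (limma adjusted p = 0.0798 over all probe sets) and 0.35 (0.0295). By their chosen probe sets, 0 of the remaining head genes passed the limma test, also at an unadjusted p under 0.05. Atp5g1, Atp5g2 and Atp5g3 encode the same mature protein of the rotor's c ring with different targeting sequences. Atp5g3 was at 6623, 7857, 7461, 7319 and 5502 in ALT tumours, all below the 8109, 8019 and 8313 of telomerase tumours, with a change of -0.24 (limma adjusted p = 0.145). Atp5g2 was at 6514, 7257, 7323, 7123 and 7112 in ALT tumours and 6542, 5739 and 6533 in telomerase tumours, with a change of 0.17 (limma adjusted p = 0.0863). Atp5g1, at 2960.1 ± 231 in ALT tumours and 2946 ± 48 in telomerase tumours (SD, n = 5 and 3), had the smallest change of the complex, 0.0037. None of the 3 passed over all genes, and 2 of them had an unadjusted p under 0.05, in opposite directions. Among the small membrane subunits, Atp5l had all ALT values below all telomerase values (-0.16, limma adjusted p = 0.0836), and the other 4 had changes between -0.067 and 0.12.

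**Figure D4:**
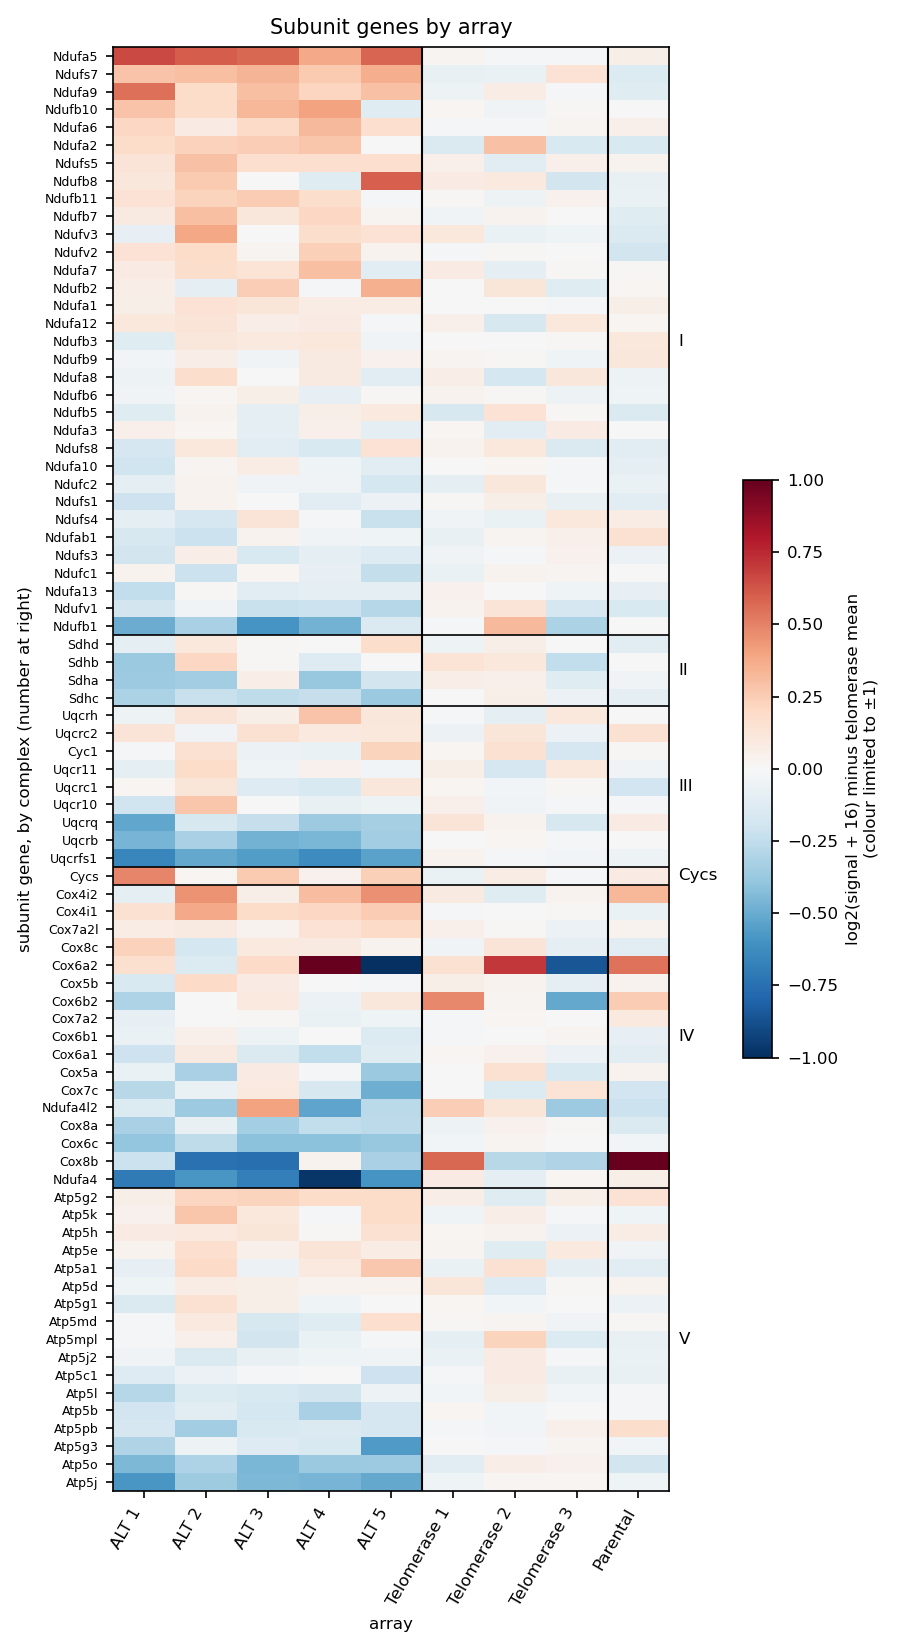
Log2(signal + 16) of each tested subunit gene minus its telomerase mean (colour, limited to ±1), by array (columns, ALT at left) and by complex (rows). Uqcrfs1 lies between -0.66 and -0.51 in ALT 1 to 5, while Uqcrq, also called, runs from -0.52 to -0.16.

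The parental tumour, which was not in the fit, lay nearer to the telomerase mean than to the ALT mean in 14 of the 15 called genes, against 93.4% of the 2169 called genes of the whole array. Cox8a was the exception, with 3213 in the parental tumour. For Ndufa4 the parental signal was 4434, for Uqcrfs1 2594, for Uqcrb 14774, for Atp5j 7516 and for Ndufa5 1244, and in 5 of the 15 it lay within the telomerase range, in 1 within the ALT range. Over all 81 tested genes it was nearer to the telomerase mean in 52, against 71.2% of all tested genes.

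Of the 66 members that were not called, 58 had a mean signal above 500, and their 95% intervals all lay between -0.49 and 0.50 on the log2 scale. Their changes ran from -0.24 to 0.22. For the dimmer ones the intervals were as wide as -1.12 to 1.18.

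All 5 tested members on chromosome 13 had changes below 0: Uqcrfs1 and Uqcrb fell, and Sdha, Cox7c and Ndufs4 had changes of -0.24, -0.18 and -0.075. On that chromosome 40.1% of the 444 tested genes fell and 2.03% rose, with a median log2 change of -0.37. Both tested members on chromosome 16, Atp5j and Atp5o, fell, where 16.1% of 411 tested genes fell, 7.79% rose and the median was -0.066. Cox4i1 lies on chromosome 8, where 18.7% of 652 tested genes rose, 5.52% fell and the median was 0.11; the other 2 tested members there, Ndufb7 and Ndufa13, had changes of 0.15 and -0.10 and did not pass. Ndufa4, Ndufa5 and Ndufa9 all lie on chromosome 6, and they moved in opposite directions.

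**Figure D5:**
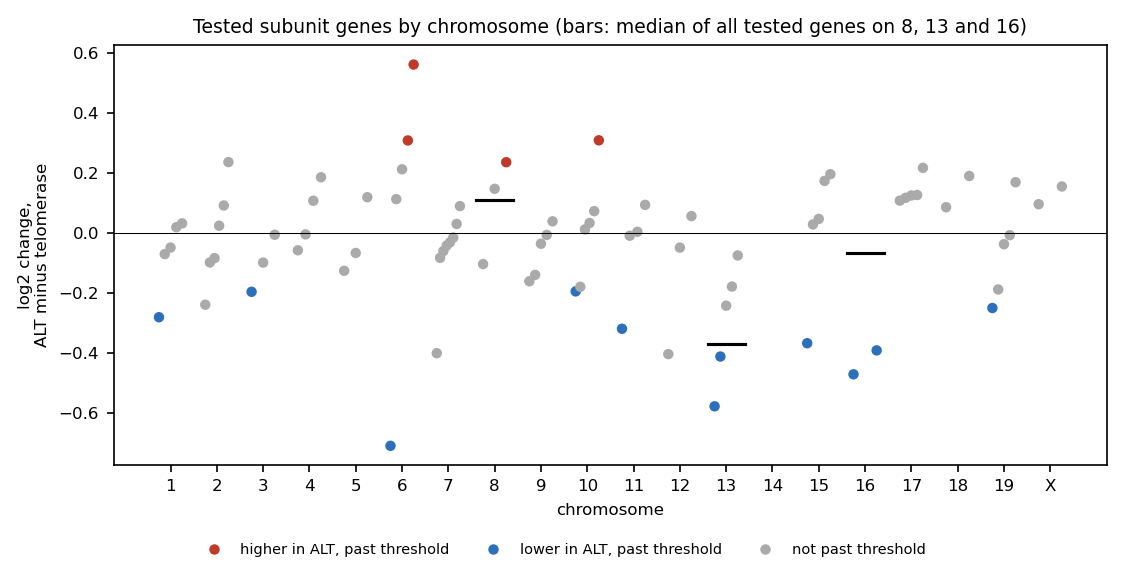
Log2 change, ALT minus telomerase, of the tested subunit genes by chromosome; black bars give the median of all tested genes on chromosomes 8, 13 and 16. The 5 points on chromosome 13 and the 2 on chromosome 16 all lie below 0.

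Probe sets of 1 gene did not always give the same value. Of 85 further probe sets of members above the filter, 69 had the sign of the chosen one. For called members there were 12, of which 11 had the sign of the chosen one and 4 passed over all probe sets. Those 4 belong to Ndufa5, Uqcrb, Sdhc and Atp5pb. Among the rest were Ndufs7 (log2 change 0.25), Cox6c (-0.21) and Atp5o (-0.27), with limma adjusted p = 0.111, 0.0557 and 0.0608. For 6 members that were not called, a further probe set passed over all probe sets: lower for Sdha, Ndufs4 and Ndufab1, and higher for Atp5a1, Cox5b and Ndufv2. For Sdha a second probe set read 888 ± 122 in ALT tumours and 1333 ± 176 in telomerase tumours (SD, n = 5 and 3), a log2 change of -0.58 (limma adjusted p = 0.0100 over all probe sets), where the chosen one gave -0.24. For Ndufs4, a subunit of the NADH end of complex I singled out after its values were seen, a dim probe set read 53.2 ± 9.12 in ALT tumours and 165 ± 16.1 in telomerase tumours (log2 change -1.40, limma adjusted p = 0.000115 over all probe sets). The chosen, brighter probe set was at 2681 ± 263 in ALT tumours and 2819 ± 185 in telomerase tumours, a change of -0.075 (limma adjusted p = 0.608). Of Ndufab1, the acyl carrier protein of complex I, 2 dim probe sets had log2 changes of -0.64 and -0.59 (limma adjusted p = 0.0255 and 0.0491), against -0.083 for the chosen one. The rises were 0.35 for Atp5a1, 0.56 for Cox5b and 0.21 for Ndufv2 (limma adjusted p = 0.0295, 0.0334 and 0.0434), against 0.085, 0.019 and 0.12 for the chosen probe sets. Where these probe sets lie in the transcripts was not analysed here.

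The acinar transcripts touch both groups, so the comparison was repeated within arrays. The arrays without acinar transcripts were ALT 3 and 4 against telomerase 1 and 2, and those with them ALT 1, 2 and 5 against telomerase 3, a lone tumour assumed to vary like the others. The direction of 14 of the 15 called genes is fixed in both, since their groups do not overlap, and only sizes and calls are given. Without acinar transcripts limma called 0 members higher and 5 lower, against a background of 3.06% higher and 3.67% lower at the same adjusted threshold. The 5 were Ndufa4, Uqcrfs1, Uqcrb, Atp5j and Cox6c. Their changes there were -0.82, -0.61, -0.48, -0.44 and -0.41. Those in the arrays with acinar transcripts were -0.65, -0.54, -0.35, -0.50 and -0.35. At an unadjusted limma p under 0.05, 7 members were higher and 13 lower without acinar transcripts, beside 2912 of the 12375 tested genes in either direction. In the arrays with acinar transcripts limma called 0 members, against a background of 1.1% higher and 1.56% lower at the same adjusted threshold. There 2 members were higher and 6 lower at an unadjusted p under 0.05, a looser cutoff to which that background does not apply. Without telomerase 1, the telomerase array with muscle transcripts, 1 member rose (Ndufa5) and 6 fell, against a background of 4.07% and 5.33%. The calls of Ndufa4, Uqcrfs1, Uqcrb, Atp5j, Atp5o, Cox6c and Ndufa5 held whichever array was left out. When each of the 8 arrays was left out in turn, Ndufs7 and Cox4i1 passed in 6 fits, Atp5b in 5, Ndufa9 in 3, Sdhc and Uqcrq in 2, Cox8a in 1 and Atp5pb in 0.

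Assembly factors insert cofactors and join subunits without staying in the finished complex. Of 48 tested assembly factors 8 rose and 4 fell, with a median log2 change of 0.074, beside the background of 7.47% higher and 10.1% lower among all tested genes. The largest rise was that of Cmc2, a copper-handling factor for complex IV, with 1449, 1621, 1330.3, 1379 and 1347 in ALT tumours, against 607, 563 and 634 in telomerase tumours. The groups were more than 1 log2 unit apart (1.22, limma adjusted p = 5.35e-05). Coa6, which serves copper delivery to complex IV, had 1556 ± 78.3 in ALT tumours and 979 ± 39.7 in telomerase tumours (SD, n = 5 and 3; 0.66, limma adjusted p = 0.000395). Both lie on chromosome 8, as does Cox4i1. Bcs1l, which inserts the Rieske protein Uqcrfs1 into complex III, rose by 0.57 while Uqcrfs1 itself fell. The remaining rises were in Cox15 (0.50), which makes the haem of complex IV, the complex II factor Sdhaf1 (0.47), the complex I factors Ndufaf8 (0.47) and Ndufaf4 (0.42), and the complex III factor Uqcc2 (0.29). The falls were in Sdhaf3 (-0.53), Timmdc1 (-0.44), Cox18 (-0.40) and Ndufaf1 (-0.32). Of the 3 tested complex V factors 0 passed with limma and 1, Atpaf1, had an unadjusted p under 0.05 (log2 change 0.35).

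Of 9 tested regulators of subunit genes 3 rose and 0 fell, beside the same background of 7.47% higher and 10.1% lower. Ppargc1b, a PGC-1 coactivator, was at 1107 ± 207 in ALT tumours and 711 ± 94.4 in telomerase tumours (SD, n = 5 and 3), with a change of 0.62. Its relative Pprc1 and Tfam, the packaging and transcription factor of mitochondrial DNA, had changes of 0.55 and 0.35. The limma adjusted p-values were 0.0239, 0.00402 and 0.00969. At an unadjusted limma p under 0.05, 1 of the 9 was lower: Gabpa, a subunit of GABP, with a change of -0.28 (limma adjusted p = 0.0994). Besides the called genes, Nrf1 and Yy1 were higher at that cutoff, with changes of 0.24 and 0.26 (limma adjusted p = 0.0985 and 0.0794). A single mitochondrially encoded subunit had a probe set, ND5 of complex I, with 5476, 4559.9, 4646, 4898 and 2669 in ALT tumours and 5718, 4015 and 4684 in telomerase tumours. ALT 5 was the lowest, the groups overlapped, and the change of -0.14 had an interval of -0.61 to 0.34.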

How the data were processed

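The deposited values are MAS5 intensities, per the submitters' processing notes, 1 per probe set and array and on a linear scale; for version, settings and scaling target, not given in the sources used here. Probe sets were named from the platform annotation: of 45101, 34958 had 1 gene, 932 several and 9211 none, and 64 controls were left out. Each gene was read by its brightest probe set. Genes in the lowest 40% by mean signal were not tested. Log2(signal + 16) of 5 ALT and 3 telomerase tumours was fitted with limma 3.58.1 in R 4.3.3 with an intensity trend, adjusted by Benjamini-Hochberg over 12375 genes; changes understate those of dim genes. The parental tumour entered no test. Members and lists were chosen with earlier results of these data known. Text names members past the threshold, those with the largest and smallest change per complex, and others singled out as said. Cox7b, Ndufa11, Ndufs6, Ndufb4b and Ndufb4c were not analysed here. On simulated data of 12375 genes the fit recovered 28.4%, 71.6% and 98.5% of log2 changes of 0.5, 1 and 2. Among the genes left unchanged there were 14 false calls. The simulation changed fewer genes than passed here and drew its spread from all tested genes. These shares therefore do not give the power for the subunit genes. Alternatives changed the filter, pseudocount, normalisation, probe set rule, model, arrays and threshold.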

Additional observations from a re-analysis of the deposited data

Results flagged for a closer look

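In 38 ALT groups examined, 3 held a value farther from the other 4 than Dixon's test at the 95% level allows, where chance alone gives about 1 group in 20. Cox6c was 9644.52 in ALT 2, against 8635 to 8832 in the other ALT tumours, which places it nearer to the telomerase values. Atp5pb was 5859.99 in ALT 2, against 6640 to 6743 in the other ALT tumours. Atp5g2 was 6513.63 in ALT 1, against 7112 to 7323 in the other ALT tumours.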

How the results depend on the processing

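Over 24 other settings, called members passed the threshold in 261 of 360 fits; their sign is no sign of stability, since 14 of the 15 have groups that do not overlap. Members not called passed in 14 of 1581 fits, and in 98 their sign turned without a pass. Counts of members higher and lower in ALT (4 and 11 as reported) stayed within 1.5 times with a filter at the lowest 60% (5 and 11), pseudocounts of 1 and 64, the mean of all probe sets, each probe set on its own, robust moderation (4 and 11 each), the parental tumour added (5 and 12), and a threshold of 0.1 (6 and 12). They were 3 and 7 with no filter, 4 and 6 with quantile normalisation, 4 and 7 with median centring, 2 and 7 without the intensity trend, 3 and 7 with the acinar level as covariate, 0 and 5 without acinar arrays, and 0 and 0 in acinar arrays alone, with fewer samples in the last 2. Leaving out 1 array gave 1 to 5 higher and 6 to 11 lower; without telomerase 1 they were 1 and 6, and without telomerase 2, 2 and 6. With the replicate number as a block they were 1 and 6. Same-numbered tumours had correlations of -0.302, -0.402 and -0.572. In each of these pairs only 1 array held acinar transcripts, and all pairs unlike in this way had negative correlations. Pairs alike in acinar transcripts had correlations of 0.325 to 0.452. These correlations therefore cannot show whether the numbers pair the tumours. The causes were not tested. With 8 arrays, calls of small changes depend on single tumours, and detection calls for dim genes were not used here.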
